A study of Homo sapiens with 9 samples.

Results

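CTCF peaks that lay close to another CTCF peak and carried no ZEB1 were taken from chromatin immunoprecipitation with sequencing (ChIP-seq) of unmodified MiaPaCa2 cells, a pancreatic ductal adenocarcinoma line. A CTCF peak was counted when the nearest other CTCF summit, the point of highest signal in a peak, lay at most 2000 bp away on the same chromosome and when the peak shared no base with a peak of any of 4 ZEB1 lists. This held for 2976 of 31754 CTCF peaks, or 9.37%. These are called close CTCF peaks without ZEB1 below. They are compared with the 27230 CTCF peaks that also lacked ZEB1 but had no CTCF summit within 2000 bp, called spaced CTCF peaks. The remaining CTCF peaks overlapped ZEB1, with 345 close and 1203 spaced.

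CTCF was precipitated in untreated, unmodified MiaPaCa2 cells with a rabbit antiserum. The ZEB1 lists came from untreated, unmodified MiaPaCa2 cells, from untreated RKO cells (a colon carcinoma line) and from 2 MiaPaCa2 clones. The delta-Repeat clone was obtained by dilution after electroporation of plasmids for a Cas9 nickase (an enzyme that cuts 1 DNA strand) and guide RNA pairs that target repeats lying upstream of the microRNA genes MIR200A and MIR200B. The WT clone was obtained by dilution after electroporation of plasmids for the nickase. Each clone is a line grown from 1 isolate, so features of that isolate and of the edit cannot be told apart. All ZEB1 samples used the same antibody, with 1 lot for both clones and a different lot for each unmodified line. CTCF was profiled in 1 sample, so how far the close spacing recurs in another culture, or in RKO or the clones, was not measured here.

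CTCF binds a long, directional DNA motif through zinc fingers, blocks enhancers at insulators and halts the cohesin complex as it extrudes chromatin loops. Adjacent CTCF sites are known from insulators and from imprinted and clustered gene families, where several sites can act at a single boundary. ZEB1 is a zinc-finger repressor of epithelial genes that drives the epithelial-to-mesenchymal transition and is repressed in turn by the miR-200 family. Motif direction and the genes beside the peaks were not analysed here, because no genome or annotation of the hg19 build was used.

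The CTCF list held 31754 peaks. The ZEB1 lists held 4804 peaks in MiaPaCa2, 7193 in RKO, 2160 in the delta-Repeat clone and 1515 in the WT clone. Read depth is unknown from the lists. The fold enrichment of a peak (fold below) is the authors' ratio of signal at the summit over the background of their peak caller, and the −log10 q is the authors' adjusted significance on that scale. Each condition has 1 list and the peaks were chosen from these lists, so no test was made. Shares carry exact Clopper-Pearson 95% intervals that cover counting error only, and adjacent peaks are not independent.

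Most close CTCF peaks came as pairs rather than as larger groups. CTCF summits were chained into runs as long as each gap was at most 2000 bp, which gave 1599 runs. Of these, 1487 held 2 peaks, 101 held 3 and 11 held 4. No peak of the run overlapped ZEB1 in 1326 runs, of which 1247 held 2 peaks, 72 held 3 and 7 held 4. In a further 216 mixed runs some peaks overlapped ZEB1 and others did not, and in 57 runs all did. The 2976 close CTCF peaks without ZEB1 were thus made up of 2738 in runs without ZEB1 and 238 in mixed runs.

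The distance to the nearest CTCF summit had a median of 1172.5 bp among close CTCF peaks without ZEB1, with a range of 176 to 1999 bp, and a median of 19446 bp among spaced CTCF peaks. The distances were used to choose the peaks and are a description. There were 8 close CTCF peaks without ZEB1 with a neighbour at 300 bp or less, 78 between 300 and 400 bp, and 157 between 400 and 500 bp. From 500 to 2000 bp each step of 100 bp held between 141 and 214. Across all CTCF peaks without ZEB1 the distances formed 1 broad distribution with no separate group of short distances, as the histogram of nearest distances shows. The 2000 bp limit lies on its rising side. No deposited peak was narrower than 200 bp, and facing edges of the peaks in runs of 2 were at least 52 bp apart.

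**Figure D1:**
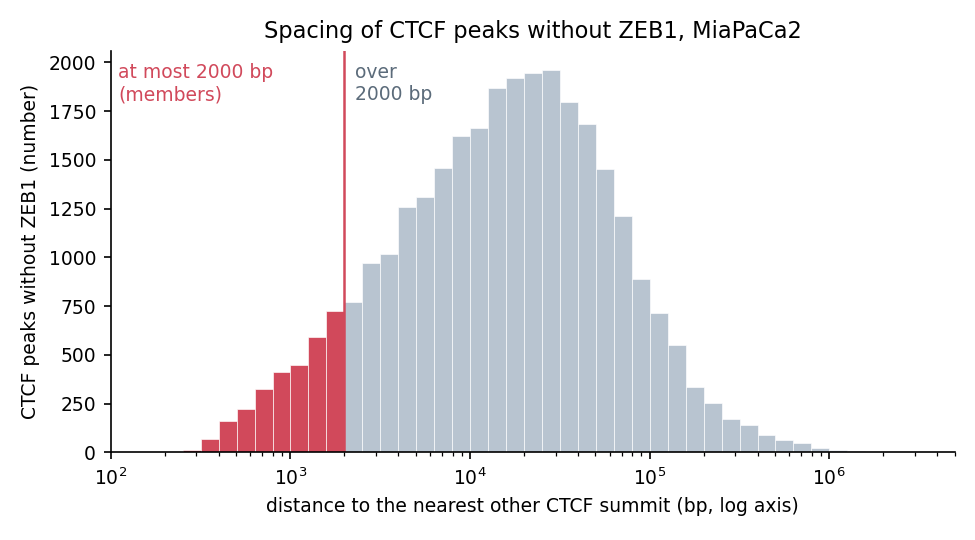
Distance from each CTCF peak without ZEB1 to the nearest other CTCF summit in MiaPaCa2 (log axis, bp) against the number of peaks in bins of equal width on the log scale. Red bars are the close CTCF peaks (at most 2000 bp) and grey bars the spaced ones; the counts climb without a break through the limit.

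The closest summits belonged to uneven partners. On chromosome 15 a peak from 51573629 to 51573921 (fold 9.03) lay 176 bp from the summit of a peak from 51573376 to 51573575 (fold 3.76). On chromosome 5 summits of peaks from 148813948 to 148814402 (fold 26.3) and from 148813648 to 148813878 (fold 3.38) were 276 bp apart. On chromosome 6 peaks from 33736341 to 33736683 (fold 12.96) and from 33736062 to 33736261 (fold 4.01) had summits 281 bp apart. In these 3 pairs the weaker peak was 200, 231 and 200 bp wide, and its summit lay 4, 11 and 24 bp from the edge that faced the stronger peak. The next closest pair, on chromosome 12 from 50144379 to 50144915, was weak on both sides, with folds of 6.24 and 4.71 and summits 286 bp apart. The one after it, on chromosome 2, joined peaks from 119640151 to 119640626 (fold 9.17) and from 119639882 to 119640093 (fold 4.13) with summits 302 bp apart.

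Of the 5 close CTCF peaks without ZEB1 just inside the limit, 4 were weak. They lay on chromosome 2 from 233844765 to 233844978 (fold 6.44, summit 1999 bp from its neighbour), on chromosome 9 from 136024938 to 136025137 (fold 5.94, 1998 bp) and from 100970066 to 100970275 (fold 4.87, 1998 bp), and on chromosome 2 from 232535774 to 232535977 (fold 5.07, 1995 bp). The fifth, on chromosome 9 from 100967970 to 100968333, had a fold of 20.1 and is the neighbour of the one with 4.87. The 5 CTCF peaks just outside the limit had folds between 11.8 and 19.98, above those 4 and under the 20.1. Chromosome 14 peaks from 21325475 to 21326431 (fold 18.2) and from 21323836 to 21324281 (fold 12.99) had summits 2001 bp apart, and so did chromosome 20 peaks from 16782561 to 16783140 (fold 16.9) and from 16784579 to 16784942 (fold 11.8). A chromosome 1 peak from 156627179 to 156627691 (fold 19.98) was 2005 bp from its neighbour, which had a fold of 4.10. Over wider classes the difference was small, with a median fold of 10.98 for neighbours at 1 to 2 kb and 11.5 for neighbours at 2 to 5 kb.

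Close CTCF peaks without ZEB1 were about as strong as spaced ones in the middle of the range and more often weak. Their median fold was 10.5 (quartiles 6.68 and 15.7), against 10.8 (quartiles 7.41 and 15.3) in spaced CTCF peaks. The median −log10 q was 23.03 in close CTCF peaks without ZEB1 and 23.6 in spaced ones. Folds under 5 were found for 244 close CTCF peaks without ZEB1 (8.20%, 7.24 to 9.24), against 1207 spaced ones (4.43%, 4.19 to 4.68), with 4.84% over all CTCF peaks. The intervals did not overlap. A stricter threshold, with a fold of 5 or more and a −log10 q of 10 or more, was met by 2266 close CTCF peaks without ZEB1 (76.1%, 74.6 to 77.7) and by 22020 spaced ones (80.9%, 80.4 to 81.3), with 80.4% over all CTCF peaks.

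The CTCF list was split by fold into 4 classes of nearly equal number. Close CTCF peaks without ZEB1 were more often in the weakest class than spaced ones and less often in the 2 middle classes. The weakest class held 29.8% (28.1 to 31.5) of them, against 24.6% (24.1 to 25.1) of spaced CTCF peaks. The strongest class held 26.1% (24.5 to 27.7), against 24.1% (23.6 to 24.6), and these intervals overlapped. The 2 middle classes held 22.2% (20.7 to 23.7) and 21.9% (20.5 to 23.5) of close CTCF peaks without ZEB1, against 25.7% (25.2 to 26.3) and 25.5% (25.03 to 26.1) of spaced ones. Of the 100 strongest CTCF peaks 10 were close and without ZEB1, and of the 1000 strongest 104 were, near their 9.37% share of the whole list.

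Weakness was greatest at the shortest distances. With a neighbour at up to 0.5 kb the median fold was 6.77 (243 peaks) and 50.6% (44.2 to 57.1) met the stricter threshold. Between 0.5 and 1 kb the median was 10.5 (966 peaks) and 75.2% (72.3 to 77.9) met it. Between 1 and 2 kb it was 10.98 (1767 peaks) and 80.2% (78.3 to 82.03) met it, which overlaps the 81.97% (81.1 to 82.8) of CTCF peaks without ZEB1 whose neighbour lay 20 to 50 kb away. CTCF peaks without ZEB1 at the far end of spacing were weak too, with a median fold of 8.91 and 71.5% (69.7 to 73.3) past the threshold where the neighbour was over 100 kb away. Leaving out the close CTCF peaks with a neighbour within 500 bp gave a median fold of 10.76, against 10.78 in spaced CTCF peaks. The share that met the stricter threshold was then 78.4% (76.8 to 79.9), still below the 80.9% (80.4 to 81.3) of spaced CTCF peaks.

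Peak width had a median of 400 bp in close CTCF peaks without ZEB1 (quartiles 309 and 493) and 384 bp in spaced ones (quartiles 308 and 463). It was 315 bp with a neighbour at up to 0.5 kb, 402 bp between 0.5 and 1 kb, and 408 bp between 1 and 2 kb. The shortest reported width, 200 bp, was found for 9.88% of peaks with a neighbour at up to 0.5 kb, 2.80% between 0.5 and 1 kb and 2.15% between 1 and 2 kb.

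The 1247 runs of 2 peaks without ZEB1 usually joined peaks of unlike strength. The stronger peak had a median fold of 14.7 (quartiles 10.3 and 19.2) and the weaker one 7.48 (quartiles 5.53 and 10.8). The ratio of stronger to weaker had a median of 1.62 (quartiles 1.251 and 2.40) and reached 11.9. It was above 2 in 432 runs (34.6%). Both peaks met the stricter threshold in 742 runs (59.5%, 56.7 to 62.2), 1 did in 434 (34.8%) and neither did in 71 (5.69%). The left peak in chromosome order was the stronger in 591 of the runs with unequal folds (47.5%, 44.7 to 50.4), so neither side led beyond counting error.

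This unevenness was largely that of any 2 adjacent CTCF peaks. Among all adjacent CTCF peaks without ZEB1, the median ratio of stronger to weaker fold was 1.57 for gaps of 1 to 2 kb (861 pairs), 1.57 for 2 to 5 kb (2083 pairs) and 1.60 for 20 to 50 kb (6851 pairs). It was 1.72 for 0.5 to 1 kb (451 pairs) and 2.28 for gaps of up to 0.5 kb (115 pairs). The rank correlation (Spearman's rho) of fold between adjacent peaks was 0.01 over the 1427 gaps of up to 2 kb and 0.04 over the 27373 longer ones, where all points share 1 library. Both values are near 0, so folds of adjacent peaks were nearly unrelated over the longer gaps. The value for gaps of up to 2 kb pools classes of opposite sign, which are given next.

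Gaps of up to 0.5 kb stood apart within the close peaks. There rho was -0.51 over 115 pairs, against -0.06 over the 451 pairs of 0.5 to 1 kb and 0.09 over the 861 pairs of 1 to 2 kb. The weaker peak had a median fold of 5.26 at up to 0.5 kb and 8.02 at 1 to 2 kb, and the stronger one 11.7 and 14.8. Both peaks met the stricter threshold in 13.9% (8.17 to 21.6) of pairs at up to 0.5 kb, against 65.5% (62.2 to 68.7) at 1 to 2 kb. Points of the shortest gaps gather along both axes of the scatter of left against right folds, where 1 peak is strong and the other is weak.

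**Figure D2:**
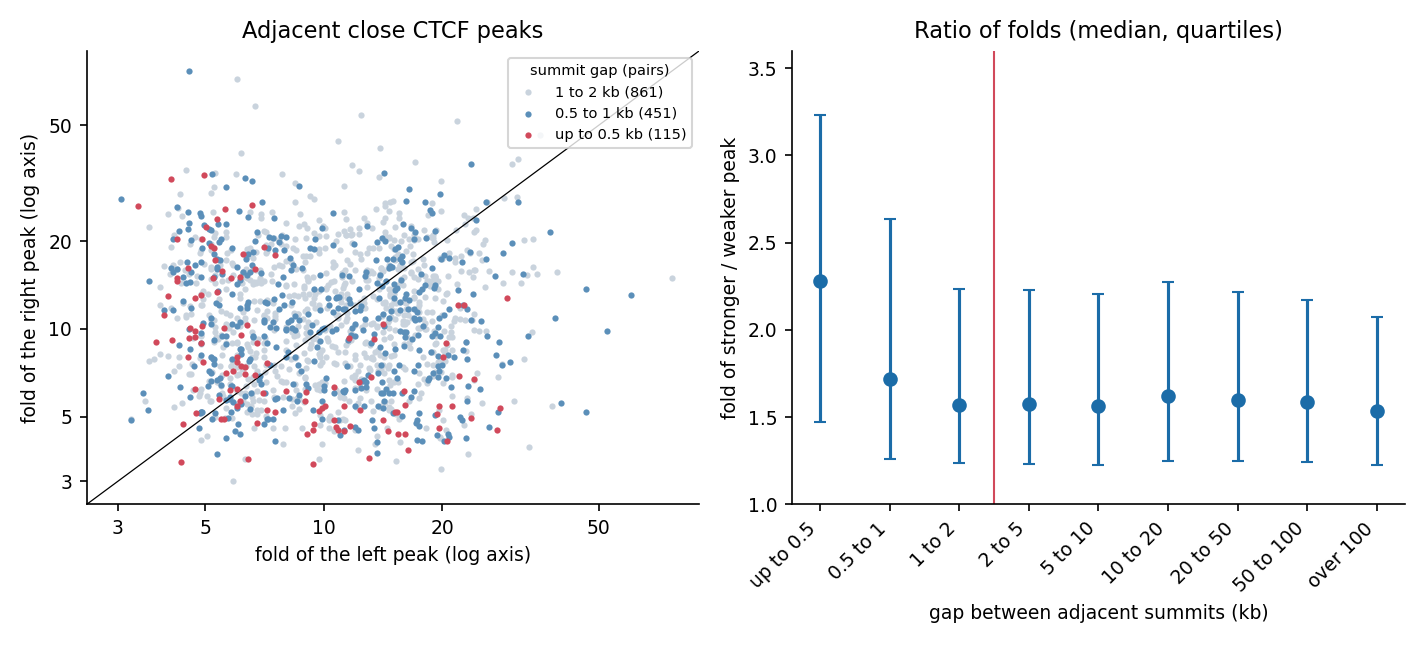
Left panel: fold of the left against fold of the right peak (both log axes) for 1427 adjacent CTCF peaks without ZEB1 with summits at most 2000 bp apart, coloured by gap; the line marks equal folds. Right panel: median ratio of stronger to weaker fold, with bars from the lower to the upper quartile, by gap between adjacent summits in kb; the red line marks 2 kb, and the median is 2.28 at up to 0.5 kb and between 1.53 and 1.62 from 1 kb on.

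The sides of the peaks that faced each other were short in such pairs, which the spacing itself in large part fixes: peaks of the list do not overlap, so both facing sides must fit between summits at most 500 bp apart, while sides of close CTCF peaks without ZEB1 had a median of 190.0 bp. At gaps of up to 0.5 kb the summit of the weaker peak lay nearer the edge facing the stronger peak than the outer edge in 83 of 115 pairs (72.2%, 63.05 to 80.1), with a median of 116 bp to the facing edge and 151 bp to the outer one. The stronger peak was shorter on the facing side in 71 of 112 pairs with unequal sides (63.4%, 53.8 to 72.3). At 0.5 to 1 kb the weaker peak was shorter on the facing side in 43.7% (39.01 to 48.4) and at 1 to 2 kb in 50.7% (47.3 to 54.1). The median width of the weaker peak was 242 bp at up to 0.5 kb and 354 bp at 1 to 2 kb, and 19.1% (12.4 to 27.5) of weaker peaks at up to 0.5 kb had the shortest width of 200 bp. Whether such weak, narrow peaks are sites of their own or part of the stronger peak was not tested.

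The 10 close CTCF peaks without ZEB1 of highest fold each had a weaker nearest neighbour, by a factor that ranged widely. Their choice by highest fold nearly dictates that the neighbour is weaker, so this is a description. The first, on chromosome 17 from 37777858 to 37778746, had a fold of 76.5, a −log10 q of 306 and rank 4 of all CTCF peaks, and its nearest neighbour from 37777561 to 37777760 had a fold of 4.55. The second, also on chromosome 17, from 36762402 to 36763311, had a fold of 71.9, and its neighbour from 36760958 to 36761313 had 6.02. These 2 peaks rank among the 10 strongest CTCF peaks of the list, while their neighbours lie in its weakest class.

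The others of the 10 lay on chromosomes 5 (137687897 to 137688427, fold 60.3, neighbour 13.1), 16 (85453913 to 85454867, fold 58.4, neighbour 6.71) and 10 (76995578 to 76996169, fold 55.4, neighbour 5.99). On chromosome 8 a peak from 9688249 to 9689049 had a fold of 54.0 (neighbour 12.4), and on chromosome 15 a peak from 77925495 to 77926298 had 52.6 (neighbour 9.80). The last 3 lay on chromosomes 19 (8645284 to 8646008, fold 51.5, neighbour 21.8), X (19352084 to 19352642, fold 46.4, neighbour 13.7) and 16 (4454210 to 4454974, fold 46.4, neighbour 5.19, with another peak of 35.4 in the same run). Only the chromosome 10 peak was part of a mixed run. It lay 240 bp from a MiaPaCa2 ZEB1 peak (76994161 to 76995337, ZEB1 fold 9.12) and 285 bp from an RKO ZEB1 peak, and its neighbour overlapped ZEB1. The nearest MiaPaCa2 ZEB1 peaks of the other 9 were between 46312 and 348691 bp away.

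Runs of 2 with a strong peak covered both extremes of evenness. The stronger peak was among the strongest 10% of the CTCF list (fold 20.4 or more) in 250 runs of 2 without ZEB1. Their median ratio was 2.28, which the choice of a strong peak in itself raises. Among them, nearly equal folds were found on chromosome 18 from 68157430 to 68159505 (22.90 and 22.94, summits 1379 bp apart), on chromosome 1 from 6305139 to 6307330 (23.97 and 24.07, 1641 bp) and on chromosome 20 from 43015118 to 43017735 (21.6 and 21.8, 1990 bp). Chromosome 16 from 87811134 to 87813078 held folds of 28.8 and 28.1 at 1221 bp. Chromosome 19 from 6862773 to 6863934 held folds of 24.4 and 23.7 at 793 bp, and a ZEB1 peak lay between 840 and 1019 bp from it in all 4 ZEB1 lists.

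The most uneven of these 250 runs was the chromosome 17 run from 36760958 to 36763311 described above, with a ratio of 11.9. It was followed by chromosome 17 from 43462393 to 43463286 (folds 3.06 and 27.9, ratio 9.11), the chromosome 16 run from 85452684 to 85454867 (6.71 and 58.4, ratio 8.70) and chromosome 2 from 47214054 to 47216270 (33.3 and 3.94, ratio 8.46). On chromosome 1 from 156629329 to 156630378 the folds were 4.10 and 32.7 (ratio 7.97) with summits 484 bp apart. The weaker peak had a −log10 q between 2.80 and 9.75 in these 5 runs, so none of the 5 weaker peaks met the stricter threshold.

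In the 72 runs of 3 peaks without ZEB1 no position led. The middle peak was the strongest in 24 (33.3%, 22.7 to 45.4), the left in 19 and the right in 29, and the median fold was 9.81 for middle and 9.85 for outer peaks. The first to the last summit spanned a median of 2276.5 bp (842 to 3548). The 3 runs with the highest summed fold lay on chromosome 17 from 37777561 to 37780078, with folds of 4.55, 76.5 and 14.9, on chromosome 16 from 4452372 to 4455394, with 35.4, 46.4 and 5.19, and on chromosome 17 from 10517840 to 10522061, with 14.3, 26.4 and 15.7. Of the 9 peaks in these runs, 7 met the stricter threshold.

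Only 7 runs of 4 peaks had no ZEB1 in any list. Chromosome 3 from 187456607 to 187460202 carried folds of 10.99, 18.7, 25.7 and 20.1 with summits 1090, 913 and 1168 bp apart, and the nearest ZEB1 peak of any list lay 931857 bp away. All 4 of its peaks met the stricter threshold. The same was true of chromosome 1 from 31654274 to 31658869, with folds of 9.77, 9.09, 15.1 and 13.9 over 4009 bp.

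The other 5 runs of 4 each held at least 1 peak under the stricter threshold. These were chromosome 10 from 102771213 to 102774479 (folds 4.89, 5.21, 33.9 and 20.3), chromosome 1 from 153324859 to 153328386 (14.8, 10.99, 5.86 and 19.01), and chromosome 19 from 1220618 to 1223607 (7.25, 20.6, 4.14 and 16.6). The last 2 were chromosome 17 from 25926862 to 25930620 (7.71, 20.2, 4.14 and 15.6) and chromosome 6 from 43919052 to 43921706 (10.97, 4.32, 6.31 and 5.87). The chromosome 19 run lay 2529 bp from an RKO ZEB1 peak and 18773 bp from a MiaPaCa2 one, and the drawing of these runs shows its weakest peak, 200 bp wide, with a summit 410 bp from that of the strongest.

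**Figure D3:**
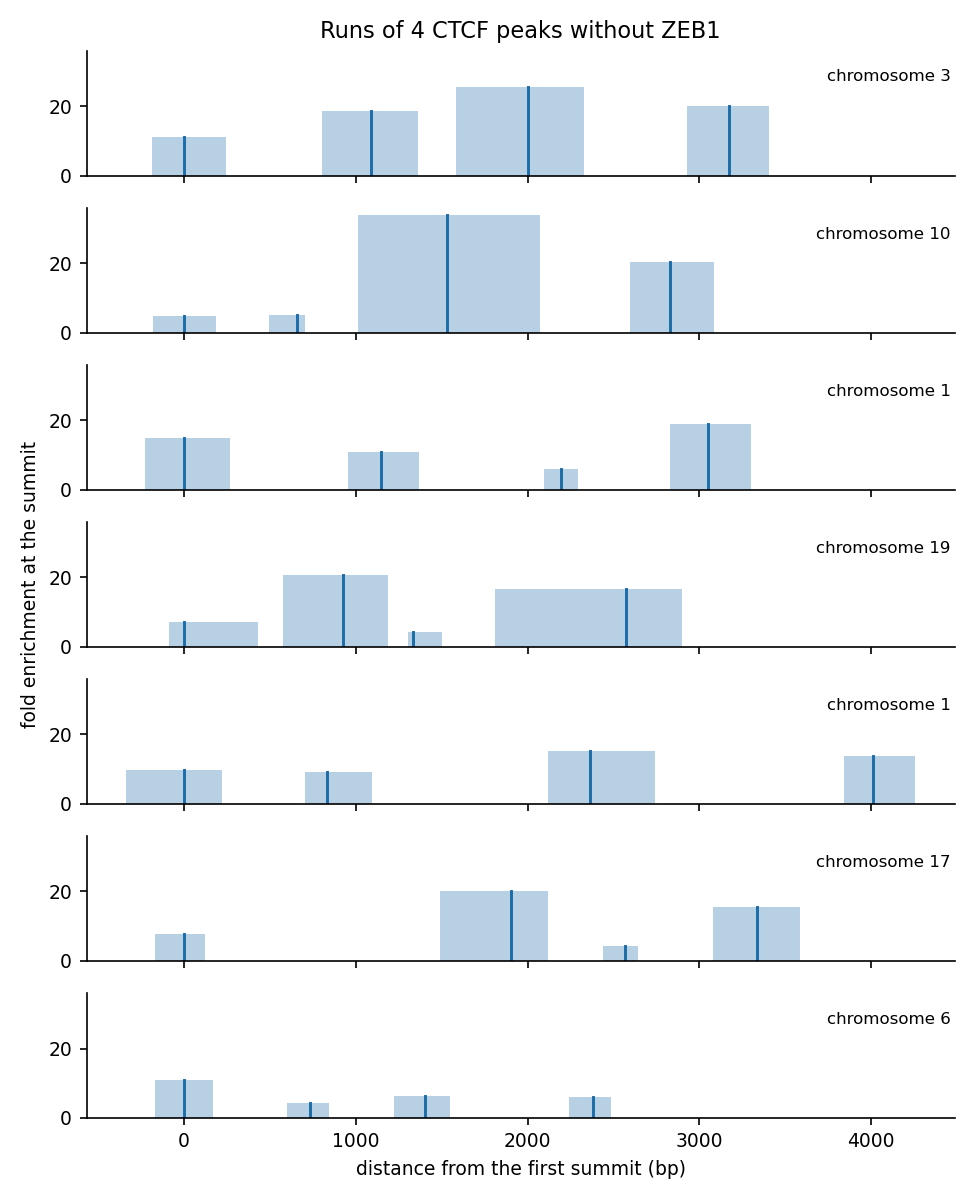
The 7 runs of 4 CTCF peaks without ZEB1, with the distance from the first summit in bp on the horizontal axis and fold enrichment at the summit on the vertical axis. Each pale block spans a peak from start to end at the height of its fold and the dark line marks its summit. In the chromosome 3 run all 4 peaks have folds from 10.99 to 25.7, while the chromosome 10 run joins folds of 4.89 and 5.21 to folds of 33.9 and 20.3.

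Close CTCF peaks overlapped ZEB1 more often than other CTCF peaks, although the rule removes those that did so from the peaks described here. Of all 3321 close CTCF peaks 345 overlapped a peak of at least 1 ZEB1 list (10.4%, 9.37 to 11.5), against 4.23% (3.99995 to 4.47) of the other 28433, with 4.87% over all CTCF peaks. The shares were 6.74% (5.92 to 7.65) against 2.67% (2.49 to 2.86) for the MiaPaCa2 ZEB1 list (3.1% over all CTCF peaks) and 7.44% (6.57 to 8.38) against 2.88% (2.69 to 3.08) for RKO (3.36% over all). For the WT clone they were 2.32% (1.83 to 2.89) against 0.841% (0.738 to 0.954), with 0.995% over all, and for the delta-Repeat clone 2.98% (2.43 to 3.62) against 1.41% (1.28 to 1.55), with 1.57% over all. In each list the 2 intervals did not overlap.

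The share was higher in close than in other CTCF peaks in each of the 4 classes of CTCF fold and each of the 4 ZEB1 lists, but the intervals were not always apart. For the MiaPaCa2 ZEB1 list, 6.67% (5.19 to 8.40) of close and 2.40% (2.06 to 2.79) of other CTCF peaks overlapped ZEB1 in the weakest class, and 7.44% (5.79 to 9.38) against 4.59% (4.11 to 5.10) did in the strongest. The intervals overlapped for the delta-Repeat clone in the strongest class, at 3.66% (2.52 to 5.13) against 2.38% (2.04 to 2.76), and for the WT clone in the second weakest, at 1.23% (0.565 to 2.33) against 0.402% (0.270 to 0.577). In the other classes and lists they did not overlap. A stricter sense of overlap lowered all shares. With summits within 100 bp, 1.99% of close and 0.960% of other CTCF peaks met MiaPaCa2 ZEB1, and for the delta-Repeat clone the shares were 0.753% and 0.422%.

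In mixed runs the peak without ZEB1 was more often the weaker. In the 184 mixed runs of 2, the peak without ZEB1 had a median fold of 9.81 and its partner with ZEB1 had 11.9. The peak without ZEB1 was the stronger in 75 runs (40.8%, 33.6 to 48.2), an interval that stays under 50%. All 238 close CTCF peaks without ZEB1 in mixed runs had a median fold of 9.27 (quartiles 6.39 and 16.1), against 10.6 (quartiles 6.73 and 15.7) for the 2738 in runs without ZEB1. These 238 peaks had a median width of 383.5 bp, against 442 bp in all close CTCF peaks with ZEB1. A wider peak more easily shares a base with a ZEB1 peak, and the part of width in the order was not tested.

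Beyond overlap, close CTCF peaks without ZEB1 lay nearer to ZEB1 peaks than spaced CTCF peaks did. Neither set overlaps ZEB1. However, only close peaks can have a CTCF neighbour within 2000 bp, and in mixed runs such a neighbour carries ZEB1. That part of the nearness is fixed by the rule, and runs without ZEB1 are given apart below. A MiaPaCa2 ZEB1 peak lay within 10 kb of 426 close CTCF peaks without ZEB1 (14.3%, 13.1 to 15.6), against 6.76% (6.47 to 7.07) of spaced ones, with 7.51% over all CTCF peaks without ZEB1. For RKO it was 18.3% (16.97 to 19.8) against 9.35% (9.01 to 9.71), with 10.2% over all. The median distance to the nearest ZEB1 peak was 96.6 kb against 168 kb in the MiaPaCa2 list and 79.5 kb against 133 kb in the RKO list.

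The clone lists, which are shorter, gave lower shares with the same order. Within 10 kb of a WT clone ZEB1 peak lay 5.14% (4.38 to 6.00) of close CTCF peaks without ZEB1 and 2.25% (2.07 to 2.43) of spaced ones, with 2.53% over all. Within 10 kb of a delta-Repeat clone ZEB1 peak lay 6.28% (5.44 to 7.22) and 2.997% (2.80 to 3.21), with 3.32% over all. Most close CTCF peaks without ZEB1 had no ZEB1 peak within 10 kb in any of the 4 lists, namely 2272 of 2976 (76.3%, 74.8 to 77.9), against 88.2% (87.8 to 88.5) of spaced ones. A ZEB1 peak within 10 kb in all 4 lists was found for 92 close CTCF peaks without ZEB1 (3.09%, 2.499 to 3.78), against 1.43% (1.29 to 1.58). Among the 2738 in runs without ZEB1 it was found for 47 (1.72%, 1.26 to 2.28), an interval that overlaps that of spaced ones. Of these 2738, 82.98% (81.5 to 84.4) had no ZEB1 peak within 10 kb in any list.

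Much of this nearness came from mixed runs, in which a ZEB1 peak lies on the neighbour by definition. Among the 238 close CTCF peaks in mixed runs, 68.5% (62.2 to 74.3) had a MiaPaCa2 ZEB1 peak within 10 kb. Among the 2738 in runs without ZEB1 the share was 9.61% (8.53 to 10.8), still above the 6.76% of spaced CTCF peaks. The same restriction gave 13.3% (12.04 to 14.6) for RKO, 3.07% (2.45 to 3.78) for the WT clone and 4.20% (3.48 to 5.02) for the delta-Repeat clone. Each interval lay above that of spaced CTCF peaks, for the WT clone only just, with bounds of 2.454 and 2.431. Peaks of 1 run were counted singly although they share nearly the same distance to ZEB1. These intervals are therefore too narrow, and whether they would stay apart with runs as the unit was not tested.

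The 2000 bp limit marked no step in nearness to ZEB1. Among CTCF peaks without ZEB1 whose nearest CTCF neighbour also lacked it, 10.7% (9.25 to 12.3) had a MiaPaCa2 ZEB1 peak within 10 kb when that neighbour was 1 to 2 kb away, and 10.2% (9.29 to 11.3) when it was 2 to 5 kb away. The share was 7.68% (6.89 to 8.53) at 5 to 10 kb, 5.27% (4.68 to 5.91) at 10 to 20 kb and 1.97% (1.45 to 2.62) at over 100 kb. Below 1 kb it was not higher, at 9.38% (7.54 to 11.5) for 0.5 to 1 kb and 7.83% (4.70 to 12.1) for up to 0.5 kb, from 885 and 230 peaks, with intervals that overlap that of 1 to 2 kb. For RKO the shares were 10.4%, 13.9%, 14.1% and 12.7% for up to 0.5 kb, 0.5 to 1 kb, 1 to 2 kb and 2 to 5 kb. The shares were thus lower at wider spacing from 2 kb on and not at shorter distances, as the plot of nearness by spacing shows.

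**Figure D4:**
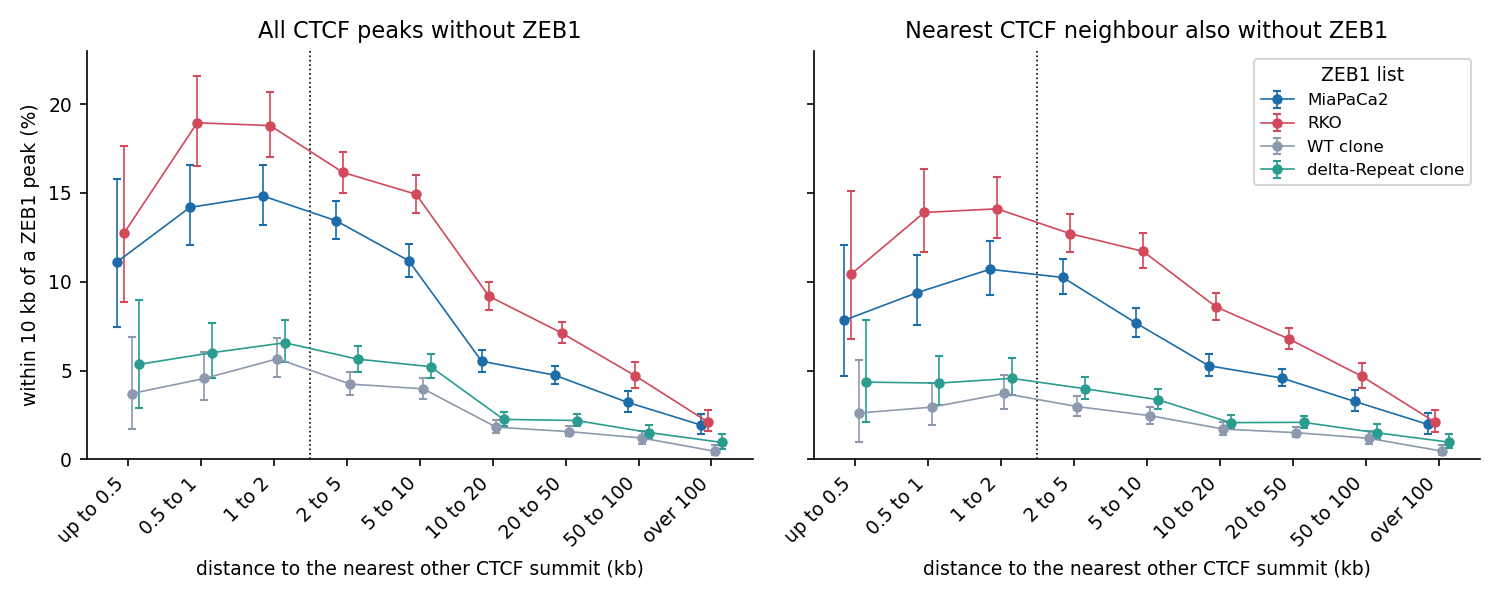
Share of CTCF peaks without ZEB1 (in %) with a ZEB1 peak within 10 kb, by distance to the nearest other CTCF summit in kb, for each of 4 ZEB1 lists; bars are exact 95% intervals and the dotted line marks 2 kb. The left panel takes all CTCF peaks without ZEB1 and the right panel those whose nearest CTCF neighbour also lacks ZEB1; in the right panel MiaPaCa2 values are 10.7% at 1 to 2 kb and 10.2% at 2 to 5 kb, on either side of the line.

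The density of CTCF peaks moved with both measures. In windows of 1 Mb with 21 to 40 CTCF peaks, 12.7% (10.8 to 14.9) of close CTCF peaks in runs without ZEB1 and 10.2% (9.57 to 10.9) of spaced ones had a MiaPaCa2 ZEB1 peak within 10 kb. In windows with over 40 CTCF peaks the values were 15.04% (10.8 to 20.1) and 19.3% (17.01 to 21.7), and in windows with 11 to 20 they were 6.55% (5.09 to 8.28) and 5.65% (5.23 to 6.09). The intervals overlapped in all 3 of these classes. In windows with 6 to 10 they were 6.42% (4.02 to 9.65) and 3.17% (2.70 to 3.70), and did not overlap. Close peaks of 1 run were counted singly here too, so their intervals are too narrow. In windows with 1 to 5 CTCF peaks it was 0 of 74 peaks in runs without ZEB1 (upper bound 4.86%) and 1.53% of spaced ones. Shares weighted to equal CTCF density are given in the last section and keep the mixed runs. For runs without ZEB1 no such weighting was made, and the part of density in their nearness was not tested.

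In runs chosen for having no ZEB1 on any CTCF peak, ZEB1 summits between the peaks were few, and the choice itself keeps them off part of that stretch. Among these 1326 runs, a MiaPaCa2 ZEB1 summit fell between the outer CTCF summits of 10 runs (0.754%, 0.362 to 1.38), against 8 runs with 1 in the stretch of equal length to the left and 13 to the right. For RKO the numbers were 18 between, 17 left and 14 right, for the WT clone 1, 2 and 3, and for the delta-Repeat clone 3, 3 and 5. Numbers between the summits and in the flanks were thus alike. The flanks are not bound by the rule in the same way, and the 216 mixed runs and the 57 runs with ZEB1 on all peaks are not counted here.

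The close CTCF peaks without ZEB1 nearest to MiaPaCa2 ZEB1 peaks had ZEB1 peaks of low fold beside them. A chromosome 21 CTCF peak from 40178121 to 40178488 (fold 5.18) lay 7 bp from a ZEB1 peak from 40178496 to 40178723 (ZEB1 fold 5.66). A chromosome 6 CTCF peak from 29617841 to 29618604 (fold 12.8) lay 16 bp from a ZEB1 peak of fold 5.58, and a chromosome 2 CTCF peak from 180990217 to 180990592 (fold 8.03) lay 16 bp from one of fold 3.15. At 33 bp followed a chromosome 2 CTCF peak from 232578542 to 232578959 (fold 15.5, ZEB1 fold 5.19) and a chromosome 12 CTCF peak from 94495988 to 94496446 (fold 10.6, ZEB1 fold 4.11). The chromosome 12 peak was in a mixed run, and its partner from 94495153 to 94495599 overlapped this same ZEB1 peak. All 5 ZEB1 folds were under the list's median of 6.53.

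Close CTCF peaks without ZEB1 were found where CTCF peaks were dense. They made up 3.95% (3.16 to 4.88) of CTCF peaks in 1 Mb windows with 1 to 5 CTCF peaks, 8.12% (7.66 to 8.60) in windows with 11 to 20 and 17.7% (15.8 to 19.6) in windows with over 40. The rule counts short spacings, so the share and the density are not independent. The next CTCF summit outside a run without ZEB1 was a median of 32.5 kb away, against 40.8 kb on either side of a spaced CTCF peak. It was within 10 kb on 20.1% (18.6 to 21.7) of flanks of runs and on 17.1% (16.8 to 17.4) of flanks of spaced CTCF peaks.

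Of 2685 windows of 1 Mb with a CTCF peak, 953 held a close CTCF peak without ZEB1 and 20 held 10 or more, with 7.90% of these peaks. Windows on chromosome 1 from 156000001 to 157000000 and on chromosome 10 from 71000001 to 72000000 held 17 each, in 9 and 8 runs, among 61 and 39 CTCF peaks. A window on chromosome 11 from 64000001 to 65000000 held 14 of 45 and one on chromosome 19 from 4000001 to 5000000 held 13 of 49. These windows were named after their counts were seen. By share of CTCF peaks, a window on chromosome 1 from 31000001 to 32000000 was above them among the 20, with 10 of 21.

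Chromosomes differed in the share of CTCF peaks that were close and without ZEB1. It was highest on chromosome 19, at 199 of 1399 (14.2%, 12.4 to 16.2), followed by chromosome 17, at 196 of 1658 (11.8%, 10.3 to 13.5). It was lowest on chromosome 13, at 28 of 642 (4.36%, 2.92 to 6.24), followed by X, at 67 of 972 (6.89%, 5.38 to 8.67). The intervals of chromosomes 19 and 13 did not overlap. Chromosome 19 had 23.7 CTCF peaks per Mb and chromosome 13 had 5.58. Over the 23 chromosomes that held close CTCF peaks the rank correlation of the 2 values was 0.57, and 0.51 without chromosome 19. Lengths here run from the chromosome start to the last peak and so include unassembled short arms, which lowers the density of chromosomes 13, 14, 15, 21 and 22.

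**Figure D5:**
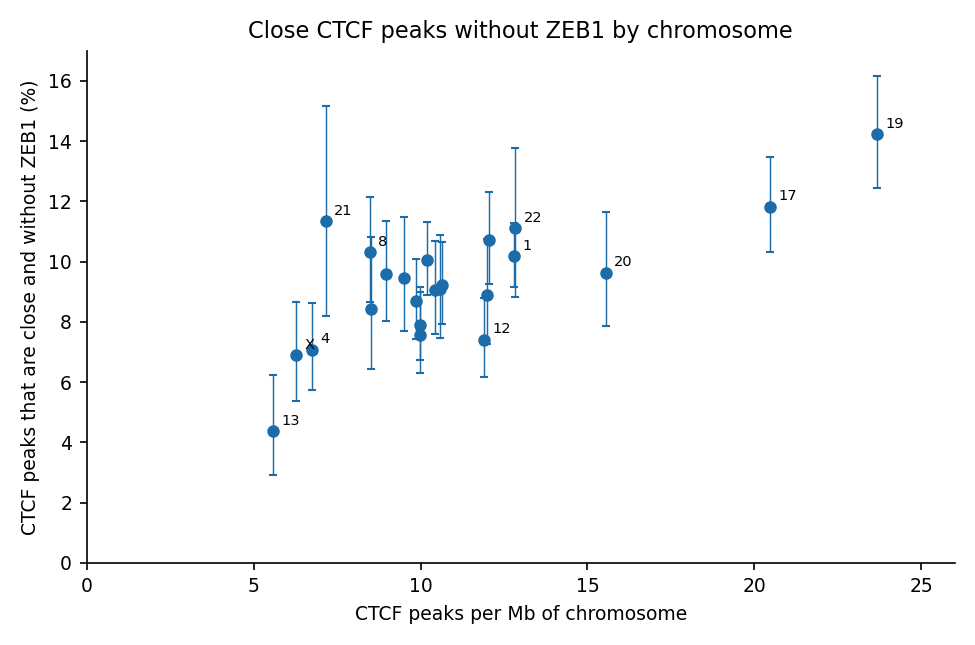
CTCF peaks per Mb of chromosome against the share of CTCF peaks that are close and without ZEB1 (in %), for 23 chromosomes with exact 95% intervals; the chromosomes at the margins are labelled. Chromosome 13 is at the lower left with 4.36% and chromosome 19 at the upper right with 14.2%.

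The median fold of close CTCF peaks without ZEB1 ran from 8.62 on chromosome 8 to 12.3 on chromosome 1. On 22 of 23 chromosomes a larger share of close CTCF peaks without ZEB1 than of spaced ones had a MiaPaCa2 ZEB1 peak within 10 kb. Mixed runs, with ZEB1 on the neighbour by definition, are included here and raise the shares of close peaks. Runs without ZEB1 were not counted by chromosome, and the chromosomes carry no intervals for this share. Chromosome 18 was the exception, with 3.57% of 56 against 4.94%.

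The outer 5 Mb of chromosomes held 371 close CTCF peaks without ZEB1 (12.5%, 11.3 to 13.7), against 10.1% (9.78 to 10.5) of spaced ones, with 10.7% over all CTCF peaks. CTCF peaks that overlapped ZEB1 were there more often, with 19.4% (15.4 to 24.00) of close and 16.2% (14.2 to 18.4) of spaced ones. The share of close CTCF peaks without ZEB1 lay between that of spaced CTCF peaks and that of CTCF peaks with ZEB1.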

How the data were processed

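ChIP-seq peak lists of 5 samples were used: CTCF in unmodified MiaPaCa2 cells and ZEB1 in unmodified MiaPaCa2 cells, RKO cells and 2 MiaPaCa2 clones. The 4 input samples were not analysed here. The tools named, per the submitters' processing notes and with no roles stated, were MACS2 2.1.0.20150731, SAMtools and Bowtie2 2.2.6, and the build was named as GRCh37 or hg19. The control and settings of each list, and whether libraries were pooled, are not given in the sources used here. Of the deposited values, fold enrichment is a linear ratio. Deposited p-values and q-values are on the −log10 scale. In the deposited lists the score is 10 times the −log10 q cut to a whole number, and it was not used. Depth is unknown.

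Positions were compared with Python 3.11.15, numpy 2.4.6, pandas 2.3.3 and scipy 1.17.1, checked with bedtools 2.31.1 and on simulated lists. Figures used matplotlib 3.10.9. Folds were compared within the CTCF list, and ZEB1 folds within theirs. Chromosome length was taken as the largest peak end, and the unassembled short arms of chromosomes 13, 14, 15, 21 and 22 were left out of the outer 5 Mb. Coordinates are hg19, counted from 1.

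The peaks, lists and rules were chosen with earlier results of these data known. Named were the 10 strongest close peaks, the 10 runs with most peaks (then highest summed fold), the 5 most even and uneven runs of 2 with a peak among the strongest 10%, and the 5 peaks closest to a neighbour, to the 2000 bp limit and to a MiaPaCa2 ZEB1 peak. For the last category ties went to the higher fold. Where both partners of a pair qualified, the pair was described together.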

Additional observations from a re-analysis of the deposited data

How the results depend on the processing

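No paired analysis was possible because no condition has more than 1 list. Motif direction and position relative to genes were not run. Settings on peaks within 500 bp, runs without ZEB1, chromosome 19 and CTCF density were chosen after seeing the data. Of 108 values under other settings, 49 stayed within the interval of the value reported or within 1.5 times the count and 59 did not. In all 68 of these that concern shares near or overlapping ZEB1, the close peaks were above the others. The settings reuse the same lists, so the 68 values are not independent. Nearness shares keep the mixed runs, with ZEB1 on the neighbour by definition, except where only runs without ZEB1 were taken. With summits within 1000 bp there were 1209 close CTCF peaks without ZEB1 in 681 runs of close peaks, with 5000 bp 6964 in 3478, and with the stricter threshold 1846 in 957. The median fold was in that order 9.77, 11.1 and 12.9, against 10.8, 10.7 and 12.4 in spaced peaks, so the order of the medians turned with 5000 bp and with the stricter threshold. Median width was 388 bp with 1000 bp and 441 bp with the stricter threshold, against 385 bp and 410 bp in spaced peaks. With the stricter threshold the ratio in runs of 2 was 1.46. Without peaks within 500 bp of a neighbour, 78.4% met the stricter threshold, against 80.9% of spaced peaks. The shares within 10 kb of ZEB1, for ZEB1 of MiaPaCa2, of RKO, of the WT and of the delta-Repeat clone, were 6.66%, 8.78%, 2.87% and 2.93% with the stricter threshold, which also shortens the ZEB1 lists, and 9.61%, 13.3%, 3.07% and 4.20% in runs without ZEB1. Spaced peaks had 3.24%, 4.56%, 1.32% and 1.61% with the stricter threshold. Within 5 kb the shares of close peaks were 10.8%, 14.01%, 3.86% and 4.64%, against 3.96%, 5.68%, 1.22% and 1.69% in spaced peaks. Within 50 kb they were 34.01%, 39.95%, 14.3% and 18.3%, against 23.4%, 28.8%, 9.16% and 12.3%. Shares rise with the distance taken, as the distance dictates. Weighted to equal CTCF density the shares of close peaks were 12.5% for MiaPaCa2 and 15.7% for RKO, against 6.92% and 9.61% in spaced peaks. This weighting keeps the mixed runs, with ZEB1 on the neighbour by definition, and runs without ZEB1 were not weighted. In windows with 1 to 5 and with over 40 CTCF peaks, their MiaPaCa2 share was below that of spaced peaks. In the other density classes it was above. With only MiaPaCa2 ZEB1 removing peaks, the RKO share was 21.3%, against 10.6% in spaced peaks, since peaks on RKO ZEB1 then stay in. The overlap shares of close peaks in the same list order were 4.91%, 5.55%, 1.63% and 2.22% with 5000 bp. Other CTCF peaks had 2.53%, 2.67%, 0.797% and 1.37%. With the stricter threshold they were 3.58%, 4.04%, 1.43% and 1.94% in close peaks, against 1.39%, 1.59%, 0.492% and 0.729%. With summits within 100 bp they were 1.99%, 1.69%, 0.964% and 0.753%, against 0.960%, 0.858%, 0.380% and 0.422%. With 50% of both peaks they were 2.38%, 2.29%, 0.964% and 0.873%, against 1.16%, 1.002%, 0.383% and 0.570%. With 1000 bp they were 8.60% for MiaPaCa2, 8.67% for RKO and 3.90% for the delta-Repeat clone, against 2.84%, 3.11% and 1.47%. The share at chromosome ends was 14.7% with 1000 bp, 5.81% for 2 Mb and 21.6% for 10 Mb, against 10.2%, 4.47% and 18.1% in spaced peaks. On chromosome 13 the share of close CTCF peaks without ZEB1 was 1.56% with 1000 bp and 12.6% with 5000 bp, and on chromosome 19 it was 6.08%, 32.9% and, with the stricter threshold, 11.9%. Where no reason is given, the cause was not tested. Unknown depth limits every statement on peaks that are missing from a list.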
